A study of Mus musculus with 20 samples.

Results

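The comparison described here is the difference between 2 organs in how gene expression differed by genotype: the genotype difference in salivary gland minus the genotype difference in small intestine. It uses 14 of the 20 arrays of a mouse series whose title asks which interferon-stimulated genes are raised in several tissues, and it answers which genes responded in 1 organ only. The salivary gland groups were 4 Irgm1-/- mice and 4 wild type mice, all female by their labels, and small intestine RNA (whole duodenum) from 3 mice of each genotype. All were on a C57BL/6 background and kept free of specific pathogens. In salivary gland the Irgm1-/- mice were 9 weeks old and the wild type mice 6, 6, 7 and 7 weeks old. In small intestine both genotypes had ages of 6, 8 and 6 weeks, but Irgm1-/- mice 1 and 2 were male and the other 4 mice female. Genotype therefore cannot be told apart from age in salivary gland, and only 1 Irgm1-/- female bears on sex in small intestine. The organs were taken from different mice and scanned on different days, so organ, scan day and slide cannot be told apart. Because whole tissue was used, fewer cells of a type and less RNA per cell cannot be told apart.

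Irgm1 encodes an immunity-related GTPase that interferon induces and that takes part in autophagy and in the control of microbes inside cells. Interferons bind receptors that activate STAT and IRF transcription factors, which switch on a broad set of genes through short promoter elements, the interferon-stimulated response element and the gamma-activated site. Their products include antiviral enzymes, guanylate-binding proteins, and the machinery that cuts proteins into peptides and shows them on MHC class I molecules. The intestinal lining meets microbes continuously and expresses part of this programme in healthy animals.

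A genotype difference is the mean log2 signal of the Irgm1-/- arrays minus that of the wild type arrays of the same organ, and the difference between organs (the interaction) is the salivary gland value minus the small intestine value. Of 39429 probes, 13100 were well above background on at least 4 salivary gland and 3 small intestine arrays, and they stood for 11032 genes. Salivary gland arrays were dimmer, with a 75th percentile of 134 to 1083 intensity units against 2563 to 5070.2 for small intestine arrays, where every Irgm1-/- array was brighter than every wild type array. No spot was saturated. Tissue labels were borne out by marker genes: 16 of 17 salivary acinar genes were detected on all salivary gland arrays and 11 of 17 on no small intestine array. All 18 absorptive enterocyte genes were detected on all small intestine arrays, and 12 of them on no salivary gland array. Ddx3y, a Y-linked gene, was detected on the small intestine arrays of the 2 mice labelled male and on no other array. Xist, which marks the inactive X chromosome, was detected on 1 of the 8 salivary gland arrays, so sex could not be checked in that organ.

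Irgm1 itself went against the label. Its level was 0.44, -0.06, -0.80 and -0.22 on the salivary gland arrays labelled Irgm1-/-, against -2.86, -2.91, -2.69 and -2.76 on the wild type arrays. In small intestine it was 2.16, 2.09 and 2.24 on the arrays labelled Irgm1-/- against 0.96, 1.10 and 0.94. These and all levels below are log2 signals relative to the array's 75th percentile. In salivary gland this percentile was over the probes detected on all its arrays, in small intestine over all probes. Levels of the 2 organs are therefore not on a common scale and are to be compared within an organ only. The libraries labelled Irgm1-/- had the higher level in both organs, with no overlap, and a second probe differed by 2.26 and 1.18 in the same direction. Which part of the gene the allele lacks was not known here, and a probe elsewhere in the transcript cannot test the label, so every direction below follows the label.

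The salivary gland arrays also differed in glandular secretory genes, in part across the genotypes. Amy1, which encodes salivary amylase, stood at 4.94 and 4.07 on Irgm1-/- arrays 3 and 4 and at 6.04 and 6.06 on wild type arrays 1 and 2. On Irgm1-/- arrays 1 and 2 it stood at -3.23 and -4.16, and on wild type arrays 3 and 4 at -4.45 and -5.76. Prb1 and Prh1, which encode proline-rich salivary proteins, split the same 8 arrays the same way. Of the other acinar genes, Smgc, Lpo and Aqp5 were lower on every Irgm1-/- array than on any wild type array. The submandibular gland protein gene Smgc stood at 2.08 to 2.49 against 2.87 to 3.61, and the lactoperoxidase gene Lpo at 3.62 to 3.82 against 4.01 or more. The water channel gene Aqp5 stood at 1.66 to 2.42 against 2.46 to 2.87. Of 6 acinar genes that passed the detection rule, limma called 0 by genotype in salivary gland. Their median genotype difference was -2.59 on slide 1 and 1.39 on slide 2. The log2 of the summed levels of the 17 acinar genes, in which the brightest genes weigh most, was 7.91 to 9.93 against 9.72 to 10.5. The part of acinar content in the differences below was not tested. Each genotype held 2 arrays of each Amy1 kind, but slide 1 carried the low Irgm1-/- and the high wild type arrays and slide 2 the reverse, so that within a slide genotype cannot be told apart from this split. The counts below are therefore also given without the 4 arrays with high Amy1 and without the 4 with low Amy1, which leaves 2 salivary gland arrays per genotype.

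**Figure D1:**
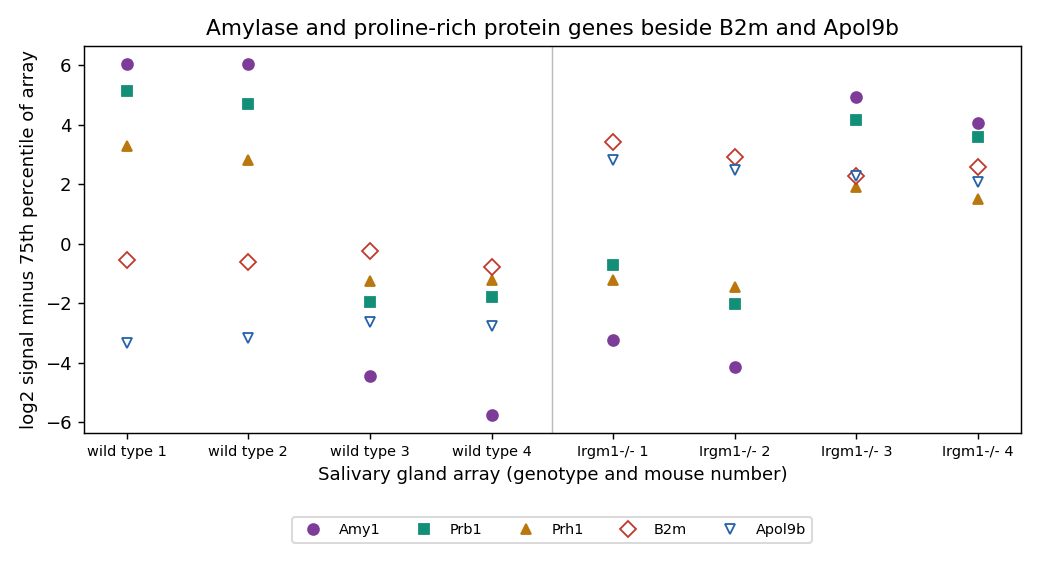
Level of Amy1, Prb1 and Prh1 (filled symbols) and of B2m and Apol9b (open symbols) on each of the 8 salivary gland arrays, as log2 signal minus the array's 75th percentile. Amy1 runs from -5.76 to 6.06 and is high on 2 arrays of each genotype, whereas B2m and Apol9b separate the genotypes on every array.

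The genotype difference was called unequal between the organs for 92 of 11032 genes (0.834%; limma, Benjamini-Hochberg adjusted p under 0.05). It was larger in salivary gland for 84 (0.761%) and smaller for 8 (0.0725%). Of the 84, 80 exceeded 1 on the log2 scale and 37 exceeded 2. In the same fit 579 genes (5.25%) differed by genotype in salivary gland, 516 of them higher (4.68%) and 63 lower (0.571%) in the Irgm1-/- mice. The split was less one-sided without the high-Amy1 arrays (675 higher, 543 lower), with slide as a block (767 and 337) and with mouse number as a block (755 and 354). In small intestine 33 genes (0.299%) differed, 30 of them higher (0.272%) and 3 lower (0.0272%). The median interaction over all genes was 0.23, and it lay between 0.0088 and 0.29 under the other ways of scaling the arrays, so the values below are best read relative to it. Without the high-Amy1 arrays the count of unequal genes was 330 (224 larger, 106 smaller in salivary gland), of which 81 were among the 92. Without the low-Amy1 arrays it was 42 (37 and 5), of which 34 were among the 92.

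A response in 1 organ required the unequal call, a genotype call in 1 organ and none in the other, and 81 genes (0.734%) met it. Of these, 74 (0.671%) were called higher in salivary gland only, and 3 lower there only (Ret, Nnt and Derl3). In small intestine only, 3 were called higher (Thg1l, Asb2 and the transcript AK017568) and 1 lower (Wfdc2). Ret, AK017568 and Wfdc2 were named after their values were seen. For 52 of the 74 the 95% interval of the small intestine difference lay within 1 of 0 on the log2 scale, whereas for 19 the small intestine difference had an unadjusted p under 0.05. A missing call in small intestine thus does not show that such a gene was unaffected there. The same holds for the other classes. Derl3 differed by -0.83 in salivary gland and by 0.86 in small intestine, the latter without a call. Wfdc2 differed in the opposite direction in salivary gland, at an unadjusted limma p under 0.05. On the salivary gland arrays the genotypes did not overlap for any of the 74, against 13.8% of all genes tested, but these genes had been chosen through that difference. On the small intestine arrays the genotypes did not overlap for 28 of the 74, against 20.2% of all genes. Of the 74, 30 belonged to the interferon-linked lists below and 9 were H2- genes of the MHC, some of them counted in both. The 8 lists held 30, 16, 15, 14, 13, 12, 11 and 5 of the 11032 tested genes. They were chosen with earlier results of these data known, so these counts are a description and no test.

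**Figure D2:**
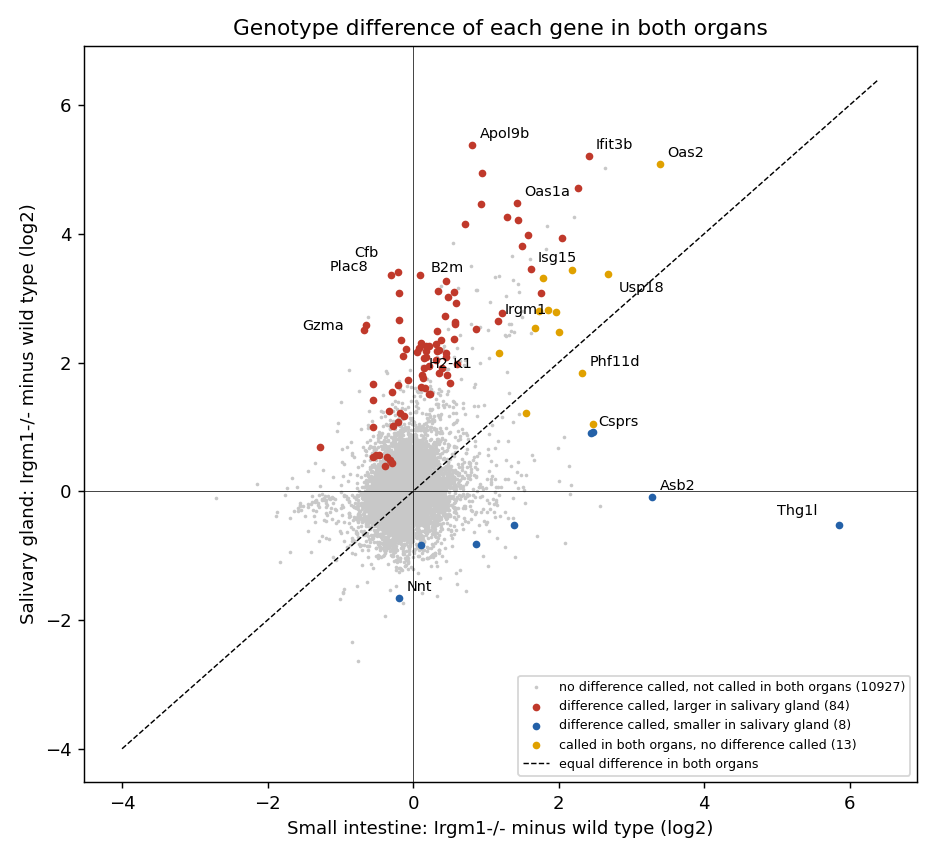
Genotype difference of each of 11032 genes in small intestine (horizontal axis, log2) and salivary gland (vertical axis, log2), with the dashed line marking equal differences. The 84 genes with a larger difference in salivary gland (red) lie above the line and the 8 with a smaller one (blue) below it. The 13 genes called in both organs without a called difference (yellow) lie on both sides of it, with interactions from -1.425 to 1.69. Some of them lie farther from the line than some called genes.

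The genes with the largest excess in salivary gland included lipid-binding, antigen-presenting, complement and cytotoxic proteins. Apol9b, an interferon-induced apolipoprotein L, stood at 2.81, 2.48, 2.27 and 2.08 on the salivary gland Irgm1-/- arrays and at -3.34, -3.16, -2.65 and -2.76 on the wild type arrays. In small intestine it stood at 3.40, 3.40 and 3.73 against 2.55, 2.83 and 2.71. The groups were apart in both organs, but by 5.38 (SE 0.18) in salivary gland and 0.81 (SE 0.21, adjusted p = 0.249) in small intestine, an interaction of 4.57 (SE 0.28, adjusted p = 2.28e-06). Its neighbour in the family Apol9a had an interaction of 3.53 (SE 0.30, adjusted p = 7.35e-05). The near-identical sequences of this pair may share signal on the array.

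Plac8, a small cysteine-rich protein of myeloid and epithelial cells, stood at 1.52, 0.88, 0.07 and 0.27 on the salivary gland Irgm1-/- arrays and between -2.94 and -2.38 on the wild type arrays. In small intestine its levels of 6.03, 6.20 and 5.89 overlapped the wild type levels of 6.56, 6.11 and 6.38. The interaction was 3.67 (SE 0.39, adjusted p = 5.05e-04). Gzma, a protease of cytotoxic lymphocytes, rose by 2.50 in salivary gland and differed by -0.67 in small intestine without a call, an interaction of 3.17 (SE 0.52, adjusted p = 0.012). In wild type salivary gland Casp1, the protease that activates interleukin-1 beta, was above background on none of the arrays. There it was at least 2.14-fold higher in the Irgm1-/- mice, and in small intestine, where it was detected on every array, it differed by -0.20 (interval -1.02 to 0.62). Its interaction was 1.30 with the salivary gland difference at its bound, 3.29 in the fit (adjusted p = 0.00739) and 1.60 with normexp (adjusted p = 0.097). Oasl1, an oligoadenylate synthetase-like protein above background on 1 of 4 wild type salivary gland arrays, had an interaction of 3.45 (SE 0.45, adjusted p = 0.00285), which normexp lowered to 1.59 (adjusted p = 0.0902).

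Antigen presentation by MHC class I differed in salivary gland with little difference in small intestine. B2m, the shared light chain of class I molecules, stood at 3.43, 2.92, 2.27 and 2.57 on the salivary gland Irgm1-/- arrays against -0.56, -0.62, -0.26 and -0.79. In small intestine it stood at 6.02, 5.89 and 5.69 against 5.96, 5.76 and 5.59. The salivary gland groups were far apart and the small intestine groups overlapped, so the interaction of 3.26 (SE 0.32, adjusted p = 3.30e-04) equalled the salivary gland rise of 3.35 almost entirely. The small intestine difference was 0.10, with an interval of -0.43 to 0.63. The heavy chain genes H2-K1, H2-Q7 and H2-D1 had interactions of 2.14 (SE 0.24), 2.08 (SE 0.26) and 1.91 (SE 0.27), and their small intestine differences lay between 0.09 and 0.18. Class I heavy chains are close relatives, and their probes may share signal.

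Over the 16 tested genes of MHC class I and peptide loading, limma called 11 higher in salivary gland, 0 in small intestine (3 higher at an unadjusted p under 0.05), and 6 larger in salivary gland. Over all genes tested, an unadjusted p under 0.05 was reached by 16.1% as higher in salivary gland, 1.49% as higher and 11.3% as lower in small intestine, and 16.7% as larger in salivary gland, and the unadjusted counts of other lists are to be read against these shares. The median was 1.90 in salivary gland (1.77 with undetected wild type levels set to their bound), 0.13 in small intestine and 1.36 for the interaction (1.29 with the bound), against medians of 0.05, -0.16 and 0.23 over all genes. Not every member had a called difference between the organs. Tap1, which pumps peptides into the endoplasmic reticulum, rose by 2.43 in salivary gland and differed by 1.32 (interval 0.46 to 2.18, adjusted p = 0.305) in small intestine, and its interaction of 1.11 had an adjusted p of 0.284. Nlrc5, the transactivator of class I genes, was at least 3.41-fold higher in salivary gland and had an interaction of 0.32 at the bound (adjusted p = 0.175 in the fit), and its other probe gave -0.60.

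The immunoproteasome, which replaces 3 catalytic subunits of the proteasome with interferon-induced ones, followed class I. Psmb8, Psmb9 and Psmb10 rose in salivary gland by 3.10, 3.02 and 1.65 and had interactions of 2.54 (SE 0.43, adjusted p = 0.0131), 2.54 (SE 0.46, adjusted p = 0.0198) and 1.86 (SE 0.36, adjusted p = 0.0302). On the Psmb9 probe the salivary gland arrays gave 1.85, 0.86, 0.31 and 0.17 against -2.28 to -2.11, and the small intestine arrays gave 3.35, 4.03 and 3.89 against 3.56, 3.37 and 2.92. The groups overlapped in small intestine alone. Of the 5 tested genes of the immunoproteasome list, limma called 4 higher in salivary gland and 0 in small intestine. The difference was called larger in salivary gland for 3 of the 5, and the lowest interaction was 0.36. Of the 14 tested subunits of the constitutive proteasome, 0 were called in either organ or between them by limma. At an unadjusted p under 0.05, 4 were higher in salivary gland (16.1% of all genes), 3 lower in small intestine (11.3%) and 7 larger in salivary gland (16.7%), and the median interaction was 0.45.

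**Figure D3:**
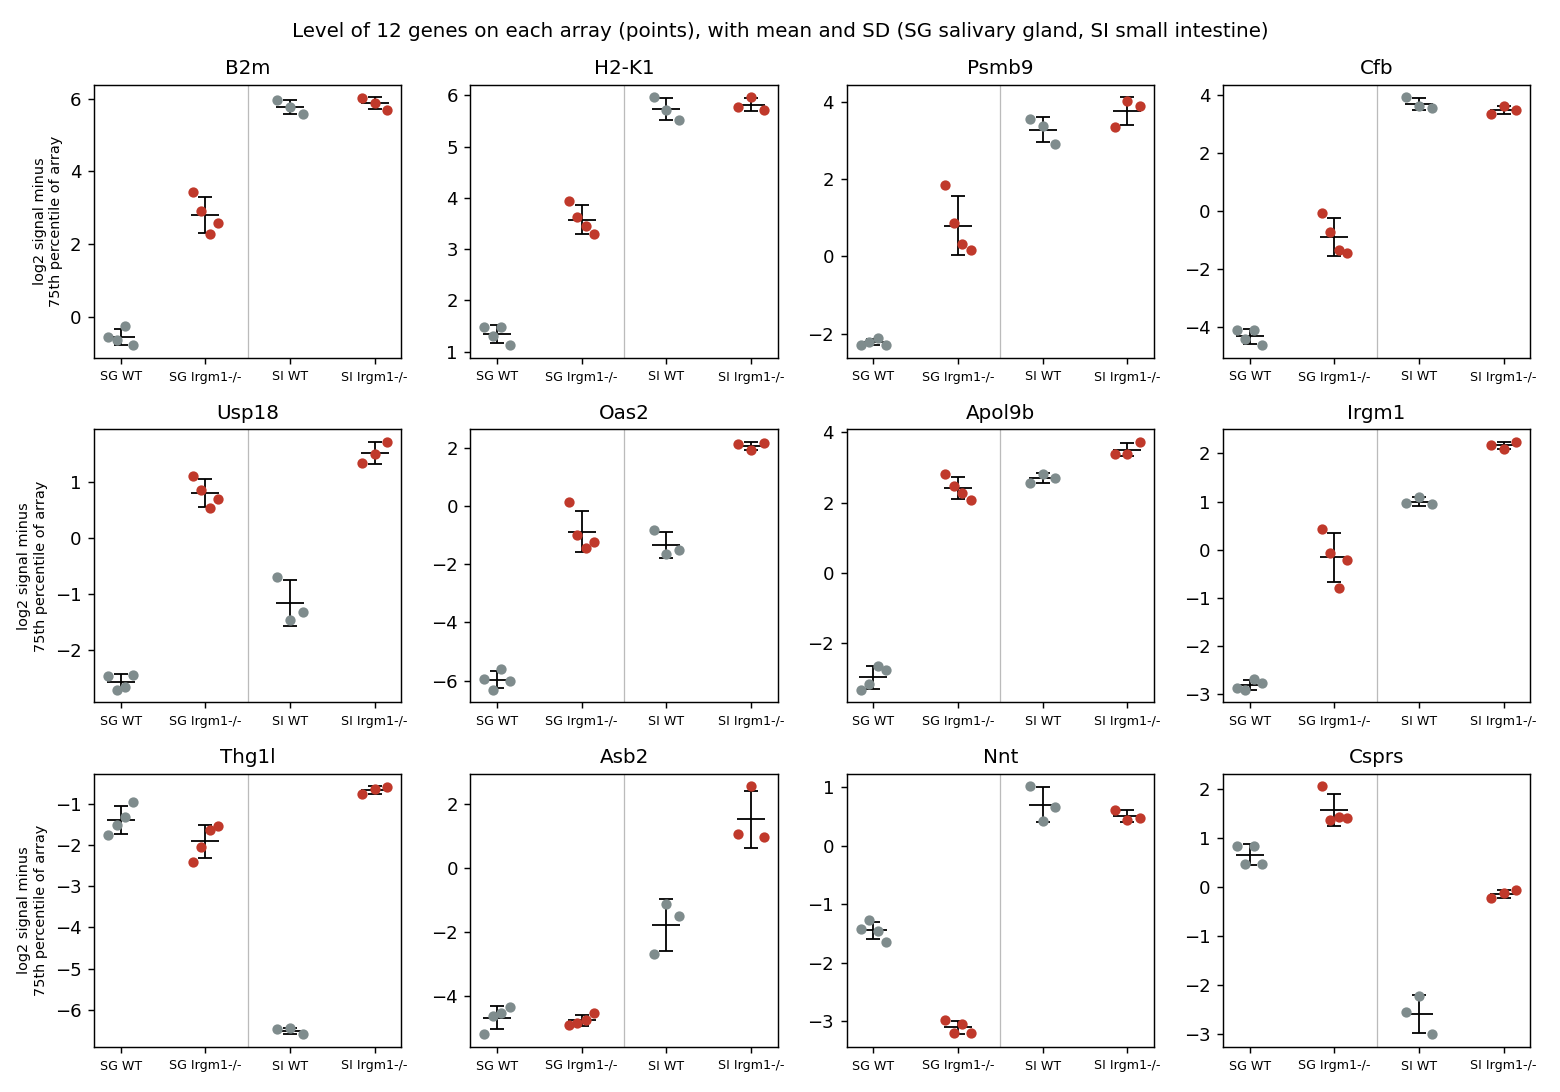
Level of 12 genes on each of 14 arrays (points; grey wild type, red Irgm1-/-), with the group mean and SD, as log2 signal minus the array's 75th percentile; SG is salivary gland and SI small intestine. B2m, H2-K1, Psmb9 and Cfb separate by genotype in salivary gland only, Usp18 and Oas2 in both organs, and Thg1l and Asb2 in small intestine only. The percentile was taken over a different set of probes in each organ, so levels compare within an organ only.

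Complement genes showed the same pattern in part. Cfb, factor B of the alternative pathway, stood at -0.05, -0.73, -1.33 and -1.45 on the salivary gland Irgm1-/- arrays against -4.62 to -4.08 on the wild type arrays, of which 2 were above background. In small intestine it stood at 3.35, 3.60 and 3.46 against 3.91, 3.61 and 3.52. The interaction was 3.62 (SE 0.39, adjusted p = 5.05e-04). C3, the central component of all pathways, had an interaction of 2.24 (SE 0.34, adjusted p = 0.00718) and C2 of 1.81 (SE 0.38, adjusted p = 0.048). Of 12 tested complement genes, limma called 10 higher in salivary gland and none of the 12 in small intestine, where 4 were higher at an unadjusted p under 0.05. The medians were 1.61 and 0.47. The resident macrophage and complement gene C1qa rose by 1.67 in salivary gland, and its interaction of 0.81 (adjusted p = 0.336) was not called.

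Chemokines, which attract leukocytes, gave fewer called differences between the organs. Of 15 tested, 10 rose in salivary gland, 2 were called between the organs, and limma called 0 in small intestine (2 higher at an unadjusted p under 0.05). Cxcl9, an attractant of activated T cells, was not above background on any wild type salivary gland array and was at least 7.51-fold higher in the Irgm1-/- mice, and its interaction was 1.96 with that difference at its bound. The fit on the undetected levels gave 3.99 (adjusted p = 0.042), and normexp background correction gave 2.24 (adjusted p = 0.205). Ccl5, an attractant of T cells, had an interaction of 2.85 (SE 0.59, adjusted p = 0.0439). Cxcl10, which shares its receptor with Cxcl9, rose by at least 3.97-fold in salivary gland and differed by 1.61 (interval 0.62 to 2.60) in small intestine, with an interaction of 0.38 at the bound (adjusted p = 0.153 in the fit).

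Among the GTPases, Gbp3 was at least 9.51-fold higher in salivary gland with undetected wild type levels, and its interaction was 1.96 at the bound, 2.98 in the fit (adjusted p = 0.0137) and 1.62 with normexp (adjusted p = 0.194). Gbp2 and Irgm1 had interactions of 2.81 (SE 0.60, adjusted p = 0.048) and 1.48 (SE 0.30, adjusted p = 0.0384). Guanylate-binding proteins coat and rupture the vacuoles of intracellular pathogens. Of 11 tested members of both GTPase families, 8 rose in salivary gland and limma called 0 in small intestine, although 9 were higher there at an unadjusted p under 0.05 and the median was 1.18. Igtp and Irgm2, the regulatory relatives of Irgm1, rose by 3.66 and 2.50 in salivary gland and differed by 1.36 and 1.02 in small intestine, and their interactions of 2.30 (adjusted p = 0.0761) and 1.47 (adjusted p = 0.194) were not called. This family therefore gives no ground for calling the small intestine unaffected.

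The interferon-induced antiviral genes divided. Of 30 tested, 28 rose in salivary gland, 13 rose in small intestine, and 17 had a larger difference in salivary gland, with medians of 3.09 and 1.25 in the organs and 1.86 for the interaction (1.80 with undetected levels at their bound). Oas1a, an enzyme whose product activates RNase L, stood at 1.70, 1.11, 0.89 and 0.70 on the Irgm1-/- arrays against -3.53 to -3.25 in salivary gland and at 4.54, 4.86 and 4.72 against 3.55, 3.35 and 2.94 in small intestine. The groups were apart in both organs, but the difference of 4.48 in salivary gland exceeded that of 1.42 in small intestine (adjusted p = 0.015) by 3.05 (SE 0.30, adjusted p = 3.30e-04). Isg15, a ubiquitin-like modifier, rose by 3.45 and 1.62, with an interaction of 1.83 (SE 0.38, adjusted p = 0.0415). Oasl2 rose by 3.80 and 1.49 and had an interaction of 2.31 (SE 0.38, adjusted p = 0.012). Ifit3b, a relative of the RNA-binding protein Ifit3, was at least 14.3-fold higher in salivary gland and rose by 2.42 in small intestine. Its wild type salivary gland level was undetected, and its interaction was 1.42 at the bound, 2.79 in the fit (adjusted p = 0.00718) and 0.93 with normexp (adjusted p = 0.297).

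In all, 23 genes (0.208%) were called in both organs, and for 13 of them the difference between organs was not called. Usp18, which removes Isg15 from proteins and restrains the interferon receptor, stood at 1.10, 0.85, 0.53 and 0.69 against -2.72 to -2.45 in salivary gland. In small intestine it stood between 1.33 and 1.71 against -0.70, -1.47 and -1.33. Its rises of 3.37 (SE 0.18) and 2.68 (SE 0.20) differed by 0.69 (interval 0.11 to 1.27, adjusted p = 0.225). Oas2 rose by at least 12.6-fold in salivary gland and by 3.40 on the log2 scale in small intestine, with an interaction of 0.26 at the bound. The fit on the undetected wild type levels gave 1.69 (adjusted p = 0.115), and normexp gave -0.02 (adjusted p = 0.99). Phf11d rose by 1.83 and 2.33, Phf11a by 2.48 and 2.01, and Dhx58, a regulator of RNA sensing, by at least 4.69-fold in salivary gland and by 1.97 on the log2 scale in small intestine. Apod, a lipid carrier, rose by 1.21 and 1.55, but its other probe gave 1.83 and 0.56.

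Sensors and signalling components showed smaller differences. Of 13 tested genes of nucleic acid sensing, 10 rose in salivary gland, 2 in small intestine, and 3 had a larger difference in salivary gland: the RNA sensors Ifih1 (1.48, SE 0.24, adjusted p = 0.012) and Ddx58 (1.34, SE 0.25, adjusted p = 0.0245), and the DNA exonuclease Trex1 (1.16, SE 0.22, adjusted p = 0.0261). Of 14 tested genes of interferon signalling, 7 rose in salivary gland, and limma called 0 in small intestine and 0 between the organs, against 3 and 10 at an unadjusted p under 0.05. Socs1, an inhibitor of the receptor's kinases, and the transcription factor Irf7 were above background on no wild type salivary gland array and were at least 2.32-fold and 11.7-fold higher in the Irgm1-/- mice. Their interactions, fitted on those undetected levels, had adjusted p-values of 0.0612 and 0.0911, and with the salivary gland difference at its bound they were 0.83 and 1.71. Stat2 and Irf9, which form the factor that binds the response element, had interactions of 0.79 and 0.84 (adjusted p = 0.166 for each).

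**Figure D4:**
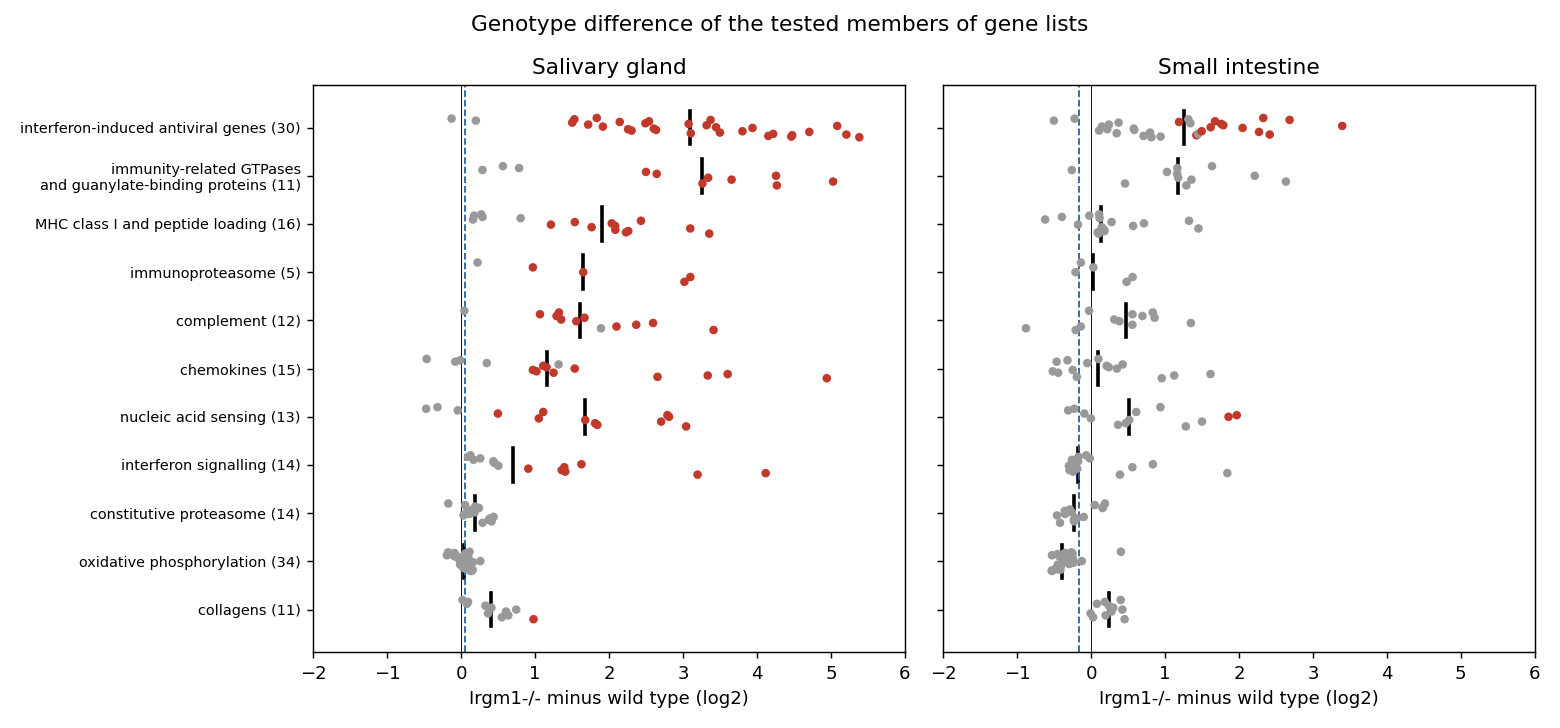
Genotype difference (log2) of the tested members of 11 gene lists in salivary gland (left) and small intestine (right); red points passed the test in that organ, grey points did not, black bars are list medians and the dashed blue line is the median of all genes. The antiviral list has 28 of 30 members called in salivary gland and 13 in small intestine, while MHC class I has 11 of 16 and 0.

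Promoters of the responding genes were searched for the 2 interferon elements in the RefSeq table of build GRCm38.p6, which gives 250 bases before and 50 after the start. The letters searched were GAAA, any 2 bases and GAAA again for the response element, and TTCNNNGAA for the gamma-activated site, on both strands. The response element was in 3.99% of 27025 promoters by symbol and in 3.44% of the 7276 tested genes that the table holds. It was in 13 of 49 matched genes (26.5%) called higher in salivary gland only and in 10 of 15 (66.7%) of those called in both organs. The gamma-activated site was in 9.55% of all promoters, in 8.16% of the tested genes that the table holds, and in 2 of 49 (4.08%) and 3 of 15 (20%) of the same groups. A match is a description of these letters and no evidence of binding. Stretches are shown for B2m, Gbp2, Apol9b and Irgm1, which were called in salivary gland and not in small intestine (where Apol9b and Irgm1 were also higher, without a call), and for Oas1a and Rsad2, which rose in both organs by unequal amounts, each upstream of the start on the gene's strand, 5′ to 3′, with the matches in capitals:
B2m, chr2:122147523-122147582, plus strand: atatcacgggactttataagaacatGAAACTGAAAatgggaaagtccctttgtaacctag
Gbp2, chr3:142620579-142620638, plus strand: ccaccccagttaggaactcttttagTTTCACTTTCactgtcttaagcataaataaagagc
Apol9b, chr15:77729010-77729071, plus strand: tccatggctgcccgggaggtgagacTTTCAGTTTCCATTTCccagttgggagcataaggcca
Irgm1, chr11:48871421-48871475, minus strand: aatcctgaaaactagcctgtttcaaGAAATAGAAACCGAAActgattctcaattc
Oas1a, chr5:120907526-120907570, minus strand: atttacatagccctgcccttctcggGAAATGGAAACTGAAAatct
Rsad2, chr12:26456538-26456597, minus strand: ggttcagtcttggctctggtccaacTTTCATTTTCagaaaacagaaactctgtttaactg
The elements of Apol9b, Irgm1 and Oas1a hold 2 overlapping matches each, and those of B2m, Gbp2 and Rsad2 a single match. The letters alone therefore occurred in genes of both response classes.

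Few genes had the larger response in small intestine. Thg1l, a guanylyltransferase that completes histidine transfer RNA, stood at -0.77, -0.64 and -0.58 on the small intestine Irgm1-/- arrays and at -6.48, -6.46 and -6.60 on the wild type arrays, none of which was above background. In salivary gland it stood between -2.42 and -1.54 against -1.76 to -0.96, and the groups overlapped. It was at least 18.1-fold higher in small intestine, did not pass in salivary gland (-0.53, adjusted p = 0.141), and had an interaction of -4.71 with the small intestine difference at its bound. The fit on the undetected levels gave -6.38 (adjusted p = 1.60e-07), and normexp gave -3.64 (adjusted p = 0.0255). Thg1l was thus detected in wild type salivary gland and on no wild type small intestine array. It passed the detection filter in small intestine through the 3 Irgm1-/- arrays alone, where it was high, so its call is not independent of that filter. Thg1l lies on the chromosome of Irgm1, 20 protein-coding genes away, and of 25 tested genes within 40 places of Irgm1 only these 2 were called unequal between the organs. Pttg1, a regulator of chromosome separation 34 places away, fell in salivary gland by 1.73 (adjusted p = 0.00188) and differed by -0.14 in small intestine, with an interaction of -1.60 (adjusted p = 0.109).

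Asb2, a subunit of a ubiquitin ligase of blood and muscle cells, stood at 1.06, 2.56 and 0.97 against -2.67, -1.12 and -1.48 in small intestine and did not separate in salivary gland (-0.08), where it was above background on 4 of 8 arrays. Its interaction was -3.37 (SE 0.56, adjusted p = 0.0125). Another Asb2 probe, above background on 3 salivary gland arrays, differed by 0.14 in small intestine, so the call rests on 1 probe. Csprs rose in both organs, by 0.91 and 2.45, an interaction of -1.54 (SE 0.29, adjusted p = 0.0246), but its other probes gave -0.55 and -0.07. Nnt, the mitochondrial transhydrogenase that is truncated in the C57BL/6J substrain, stood at -2.97, -3.21, -3.04 and -3.21 against -1.43, -1.27, -1.46 and -1.64 in salivary gland and at 0.62, 0.44 and 0.47 against 1.02, 0.43 and 0.67 in small intestine. It fell in salivary gland by 1.66 and differed by -0.19 in small intestine, with an interaction of -1.47 (SE 0.21, adjusted p = 0.00412). Derl3, a component of protein quality control in secretory cells, had an interaction of -1.69 (SE 0.28, adjusted p = 0.0125), with a fall of 0.83 in salivary gland and a difference of 0.86 in small intestine (adjusted p = 0.222).

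Some genes of immune cells rose in salivary gland as well, against 4.68% of all genes. There limma called higher 3 of 5 tested monocyte and neutrophil genes, 2 of 7 T and NK cell genes and 1 of 5 dendritic cell genes. It called 0 of 6 B and plasma cell genes and 0 of 3 mast cell and eosinophil genes higher there, and 1 of each list lower. Of 12 tested resident macrophage genes, 7 rose there, and limma called 0 in small intestine and 0 between the organs, against 4 higher in small intestine (1.49% of all genes) and 4 larger in salivary gland (16.7%) at an unadjusted p under 0.05. Their median interaction was 0.76. The log2 of the summed levels of that list, over 16 genes on the array, was 3.42 to 4.41 on salivary gland Irgm1-/- arrays. On wild type salivary gland arrays it was 2.68 to 3.62, which overlaps, and in small intestine it was 5.31 to 5.72 against 5.01 to 5.30. In this measure, also used for the next lists, the brightest genes weigh most. The monocyte and neutrophil list summed to 3.80 to 4.76 against 2.25 to 2.80 in salivary gland and to 6.75 to 6.94 against 6.59 to 6.96 in small intestine, while S100a8, S100a9 and Mpo, which define those cells, were above background on no salivary gland array. The list's called members were Plac8 and Ly6c1 (1.66, SE 0.31, adjusted p = 0.0239). The T and NK cell list summed to 1.80 to 2.61 against 1.12 to 1.84 in salivary gland and to 3.60 to 4.29 against 3.62 to 4.96 in small intestine, and the B and plasma cell list to 2.60 to 3.0 against 3.22 to 3.39 in salivary gland. The part of such cells in the differences was not tested. Of 24 tested genes of autophagy and mitophagy, the process in which Irgm1 acts, limma called 0 in either organ or between them. At an unadjusted p under 0.05, 3 were higher in salivary gland (16.1% of all genes), 1 higher (1.49%) and 3 lower (11.3%) in small intestine, and 6 larger (16.7%) and 1 smaller (1.55%) in salivary gland. Their median interaction of 0.14 was below the 0.23 of all genes.

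Genes called higher in salivary gland only mostly had the higher wild type level in small intestine. With arrays set to the probes detected on all 14, 64 of the 74 (86.5%) were higher in wild type small intestine than in wild type salivary gland, with a median of 1.38 on the log2 scale, against 50.3% and 0.01 over all genes tested. Of the 13 genes called in both organs without a called difference, 4 (30.8%) were higher in wild type small intestine, and their median was -0.75. Of the 10 called in both organs with different sizes, 8 (80%) were higher there, with a median of 0.63. The higher wild type level in small intestine was thus not particular to genes called in salivary gland only. B2m was higher there by 3.08 and Cfb by 4.73, whereas Usp18 differed by -1.84. The wild type arrays enter both this measure and the genotype difference, so the relation is a description and has no test.

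Single arrays changed which genes were called more than the size of the differences. Blocks altered the calls, and leave the size of a difference unchanged in this balanced design. Leaving out 1 array at a time gave 40 to 151 unequal genes, and 38 of the 92 passed without any 1 array. The count was 40, 52 and 50 without small intestine Irgm1-/- arrays 1, 2 and 3, and 55 without small intestine wild type array 1. It was 50 and 151 without salivary gland Irgm1-/- arrays 2 and 4, and 60, 49 and 48 without salivary gland wild type arrays 1, 2 and 4. Among the genes named above, Apol9b, Apol9a, Plac8, Cfb, Oasl1, Casp1, B2m, H2-K1, H2-Q7, H2-D1, Gzma, Oas1a, Ifit3b, Oasl2, C3, Ifih1, Thg1l, Asb2, Nnt and Derl3 passed without any 1 array. Gbp3 failed without small intestine Irgm1-/- arrays 1 or 2 (adjusted p up to 0.0527) and Psmb8 without array 1 (adjusted p = 0.0513). Psmb9 and Csprs passed in 7 of 14 such fits and Ly6c1 in 8, with adjusted p up to 0.085, 0.0775 and 0.0935. Cxcl9, Ccl5, Gbp2, C2, Psmb10, Isg15, Irgm1, Ddx58 and Trex1 passed in only 3 to 6 of 14, with adjusted p up to 0.164, and each failed without any of the small intestine Irgm1-/- arrays 1, 2 and 3.

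Normexp background correction called 31 of the 92 and kept the direction of all 92. Besides the genes given above with that value, Gbp2, C2, H2-Q7, Psmb8, Psmb10, Oasl2, Isg15, Irgm1, Ifih1, Ddx58, Trex1, Ly6c1, Csprs, Nnt and Derl3 lost their call under it, with adjusted p between 0.066 and 0.18. Apol9b, Apol9a, Plac8, Cfb, Gzma, Ccl5, B2m, H2-K1, H2-D1, Psmb9, C3, Oas1a, Thg1l and Asb2 kept it.

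With females only, which leaves 1 small intestine Irgm1-/- array that is assumed to vary like the other groups, all 92 kept their direction. That fit shares all salivary gland and all wild type small intestine arrays with the main fit. The kept direction was therefore largely given beforehand and says little about sex. The slide as a block gave 149 unequal genes (130 larger, 19 smaller in salivary gland) and 1104 salivary gland genes. By the mouse numbers, which pair the small intestine arrays, a block gave 79 unequal genes (67 and 12), with 1109 genes called in salivary gland against 27 in small intestine. Of the genes named above, Casp1 (adjusted p = 0.0507), Cxcl9 (0.0984), Gbp2 (0.0792), C2 (0.0697), Psmb10 (0.0528), Isg15 (0.0833), Irgm1 (0.0754), Ddx58 (0.069) and Trex1 (0.069) lost their call under this block. Every list median of the interferon-linked lists stayed above 0 under all 33 alternatives. Several of these, such as the blocks, cannot change a median in this balanced design, and the median of all genes was itself 0.23 in the main fit. The number of members called varied: 4 to 20 of the antiviral genes, 2 to 9 of the class I genes and 1 to 4 of the complement genes. The other 5 lists fell to 0 calls by limma under some settings, with 0 to 6 GTPases, 0 to 4 immunoproteasome genes, 0 to 7 chemokines, 0 to 5 sensing genes and 0 to 4 signalling genes called.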

How the data were processed

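Single-colour Agilent arrays (design 026655, annotation build mm9, Feature Extraction 11.5.1.1, per the file headers) were labelled with Cy5, per the labels' protocols. The deposited scanner files hold linear intensity, after the software's background subtraction and detrending but before any scaling of 1 array to another, per the file headers, with 0 or 1 flags per spot. The authors' series table, an intensity table of unstated normalization, served as an alternative only. Its 3 small intestine wild type columns matched the scanner file of another array of their group (Spearman at least 0.9998, against 0.933 or more for their own), so replicate numbers follow the scanner files.

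Outlier spots were left out, spots averaged per probe after log2, and each array set to its 75th percentile. In salivary gland, where the share of probes detected on every array was below 50%, this was taken over the 9570 probes detected on all its arrays. Each gene was represented by its brightest passing probe. Names came from a RefSeq table (GRCm38.p6) that matched 27508 probes by accession, while 11921 kept the file's name or a synonym. A single limma 3.58.1 fit (R 4.3.3, data.table version 1.17.8) of 14 arrays with 4 group means gave the organ differences and the interaction, adjusted by Benjamini-Hochberg over 11032 genes. The labels do not say how mice were otherwise related, so p-values measure the spread between these mice. On simulated data of 11032 genes, 30% of 100 interactions of 1 and 79% of 100 of 2 on the log2 scale were recovered, and 6 of 115 calls were false. The simulated noise was independent between genes and arrays. It held no shared shift such as the Amy1 split or the brightness difference, so these rates need not hold for the real arrays. A fold given as "at least" sets each array of an undetected group to its lowest detected level, or to the gene's own level where higher. Genes undetected in 1 genotype of an organ passed the detection filter there through the other genotype alone.

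The members and gene lists were chosen with earlier results of these data known. Named genes were the 15 highest and 15 lowest called interactions (without clones, predicted genes and sex-linked genes), up to 4 called or 2 uncalled members of each list, a fixed set, and the 5 genes called in both organs with the smallest interaction. Members of the fixed set that did not enter the fit included Ifit1, Ifit2 and Ifi44. After removal of group means, the correlation of same-numbered mice over genes was 0.358, 0.292 and 0.431 for small intestine, which pairs them by the rule used, and 0.257, -0.0384, -0.48 and 0.469 for salivary gland, which does not. Alternatives were other scalings, background correction, filters, probe choice, blocks, females only and leaving out arrays. Leaving out arrays by their Amy1 level was chosen after seeing the data.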

Additional observations from a re-analysis of the deposited data

Results flagged for a closer look

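The genotype difference was unequal between salivary gland and small intestine for 92 genes by the interaction test, which is the comparison itself. Among 116 groups of 4 salivary gland arrays checked for the named genes, 5 held a value far from the other 3, which is no more than the about 1 in 20 groups that chance gives. Gbp3 stood at -5.07 on wild type array 3, Aif1 at -4.62 on wild type array 4 and Cck at -3.28 on wild type array 3. Csprs stood at 2.04 and Stat2 at 0.48, both on Irgm1-/- array 1, the brightest array of the organ.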

How the results depend on the processing

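The count of unequal genes (92) was 58 with the percentile over probes detected on all 14 arrays, 33 with quantile normalization, 35 with normexp, 20 without the detection filter, 149 with slide as a block, 36 with the authors' table, 12 with females only, and 57 with a replicate block by the table's numbers, against 79 with the replicate block by the scanner files. Without the high-Amy1 and low-Amy1 arrays it was 330 and 42. Leaving out 1 array gave 40 to 151.

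Genes responding in 1 organ (81) numbered 47, 26, 31, 20, 123, 29 and 12 under the first 7 of these settings in the order given, with females as the seventh, 48 with the block by the table's numbers, 309 and 35 without the high-Amy1 and low-Amy1 arrays, and 36 to 136 without 1 array. Salivary gland genes (579) numbered 357 with normexp, 297 with detection on all 14 arrays, 1104 with slide (767 higher, 337 lower) and 1109 with replicate block (905 by the table's numbers), 370 with females only, 264 without the brightest and dimmest arrays, 1218 (675 higher, 543 lower) and 178 without the high-Amy1 and low-Amy1 arrays, and 300 to 930 without 1 array. Small intestine genes (33) numbered 12 without the detection filter, 11 with detection on all 14 arrays, 53 with slide as a block, 4 with females only, 15 with the block by the table's numbers, and 17 to 51 without 1 array. The Asb2 interaction turned to 1.10 without the detection filter, where its other probe was the brighter. Other causes were not tested. The split between larger and smaller calls was 48 to 10 with the percentile over probes detected on all 14 arrays and 27 to 6 with quantile normalization, against 84 to 8. In salivary gland 25.2% to 48.7% of probes were well above background, so dim genes there have only bounds.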

Other observations

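Other genes outside the naming rule kept their call in nearly all of 29 alternative settings, and they were chosen after their values were seen. Lgals3bp, a secreted glycoprotein that binds galectins, had an interaction of 2.03 (SE 0.23, limma adjusted p = 6.19e-04), with a difference of 2.61 in salivary gland against 0.58 in small intestine, and passed in all 29. Nlrp1a, an inflammasome sensor, had an interaction of 2.51 (SE 0.34, adjusted p = 0.00388) and passed in 28. Parp14, an ADP-ribosyltransferase, had an interaction of 2.76 (SE 0.39, adjusted p = 0.00417) and passed in 27.

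Wfdc2, an epithelial secreted protease inhibitor, fell in small intestine by 1.28 and differed by 0.69 in salivary gland, with an interaction of 1.97 (SE 0.31, adjusted p = 0.0101). Cck, the gut hormone cholecystokinin, rose in salivary gland by 1.0 and differed by -0.55 in small intestine, with an interaction of 1.55 (SE 0.27, adjusted p = 0.0142). Its call was lost without small intestine Irgm1-/- array 1 (adjusted p = 0.0589) and under the mouse number block (adjusted p = 0.0551).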
